A study of Rattus norvegicus with 10 samples.

Results

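PCCl3 cells that had received a non-silencing siRNA (siScramble PCCl3) were compared with untreated PCCl3 cells (wt PCCl3), 2 conditions that were never placed on one array. The comparison was indirect. For each replicate number, the log2 ratio of siFoxE1 over siScramble was subtracted from the log2 ratio of siFoxE1 over wt. The siFoxE1 extract, hybridised on both arrays of a number, cancels in the difference, which leaves siScramble over wt. This used 8 of the 10 arrays of the series and gave 4 culture pairs. The other 2 arrays held pooled RNA of the same cultures, and their difference was used as a check and not as a further culture.

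PCCl3 is a clonal line of rat thyroid follicular cells that keeps thyroid functions in culture. All 3 conditions grew with thyrotropin, insulin, somatostatin, transferrin, hydrocortisone and a small peptide. siFoxE1 PCCl3 received 25 nM of an siRNA pool against Foxe1, a thyroid forkhead transcription factor, in DharmaFECT 1, a lipid reagent, and siScramble PCCl3 received a non-targeting pool in the same reagent. RNA was taken 48 h after transfection. wt PCCl3 received neither siRNA nor reagent, so the siRNA, the lipid and the handling of the cells cannot be told apart here.

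Cells carry sensors for foreign RNA, among them RIG-I-like receptors, Toll-like receptors and the kinase PKR. Their signals pass through interferon regulatory factors, members of which bind the interferon-stimulated response element in the promoters of interferon-stimulated genes. The products of these genes block viral RNA, modify proteins with ISG15 or attract leukocytes. Cholesterol synthesis, amino acid supply and protein folding in the endoplasmic reticulum (ER) are under transcriptional programmes of their own, and each was given a gene list.

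On each of the 10 arrays, 60.6 to 68.2% of the Cy3 spots and 56.8 to 60.3% of the Cy5 spots exceeded background clearly, and the median Cy3 signal was 72 to 88 over a local background of 21 to 22.5. Arrays have no read depth, and precision is limited by how many were hybridised. Array slide divided the pairs unevenly. In pairs 1, 2 and 4 both arrays lay on one slide, while the siScramble array of pair 3 and that of the pooled pair lay on another slide. The labels call the numbers biological replicates. The spread below is that over 4 paired differences, each of which holds a wt culture, a siScramble culture and the measurement error of both arrays.

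The thyroid label of the cells held. In both conditions 23 of the 29 thyroid genes on the array were well above background on all 8 arrays, among them Tg, the thyroid hormone precursor, and the transcription factors Pax8 and Nkx2-1. The endothelial markers Pecam1, Tek, Tie1 and Flt1, the leukocyte markers Ptprc and Itgam, the fibroblast markers Dcn, Lum and Fap, and the C cell markers Chga and Scg2 were not above background on any of the 8 arrays. The summed Cy3 level of the 9 leukocyte markers was 9.71 to 9.86 on the log2 scale in wt and 9.67 to 9.84 in siScramble. That of the 9 fibroblast markers was 9.74 to 9.92 in wt and 9.73 to 9.93 in siScramble. The ranges overlapped for the endothelial and C cell markers as well, and no tested gene of these 4 lists passed the test. In bulk RNA, fewer cells of a type and less RNA per cell cannot be told apart.

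Foxe1, the gene targeted in the third condition, did not pass the test between siScramble and wt. Its siFoxE1 over wt log2 ratios were -0.52, -0.54, -0.34 and -0.61 in replicates 1 to 4, and its siFoxE1 over siScramble ratios were -0.76, -0.44, -0.61 and -0.39. All 8 siFoxE1 arrays therefore carried the sign that their labels give. The difference, siScramble over wt, was 0.24, -0.10, 0.27 and -0.22 in the 4 pairs and -0.18 in the pooled pair. Its mean was 0.05 (95% interval -0.16 to 0.25, adjusted p = 0.845, limma), and the sign of the mean turned without pair 1 or pair 3.

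In the promoters of interferon-stimulated genes the core of the response element was looked for as GAAANNGAAA on both strands, in the RefSeq window from 250 bases before to 50 bases after the start (build GRCr8). Of 39 interferon-stimulated genes with a tested probe, 31 had a promoter in the table and 22 of those, 71.0%, held the core. Of all 27457 promoters 3.77% held it, and of the promoters of all genes tested 2.94%. None of 32 promoters of integrated stress response genes and none of 29 of cell cycle genes held it, and 1 of 21 of cholesterol genes did. The stretches below belong to the 9 members with the core and a mean difference of at least 0.5. They were chosen by the core and the mean difference, and the order of the culture pairs played no part. Each runs 5′ to 3′ along the gene, with the core in capitals, and TTTC repeats are the same core on the other strand.
Lgals9, chr10:64428057-64428106, minus strand: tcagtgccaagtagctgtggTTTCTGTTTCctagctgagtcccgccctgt
Ifi27, chr6:128355123-128355257, plus strand: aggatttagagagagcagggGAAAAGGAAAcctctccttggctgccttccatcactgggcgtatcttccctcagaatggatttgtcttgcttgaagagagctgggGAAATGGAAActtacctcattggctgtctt
Oas1a, chr12:41330405-41330460, plus strand: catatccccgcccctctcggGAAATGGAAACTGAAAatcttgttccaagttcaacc
Oas1i, chr12:41285170-41285225, plus strand: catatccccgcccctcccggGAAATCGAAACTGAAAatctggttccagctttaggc
Rsad2, chr6:48788238-48788287, minus strand: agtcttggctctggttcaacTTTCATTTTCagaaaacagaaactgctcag
Cxcl10, chr14:15988816-15988852, plus strand: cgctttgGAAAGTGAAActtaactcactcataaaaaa
Oasl2, chr12:47383307-47383356, minus strand: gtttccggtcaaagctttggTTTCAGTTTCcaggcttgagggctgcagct
Ifi44, chr2:243303791-243303886, minus strand: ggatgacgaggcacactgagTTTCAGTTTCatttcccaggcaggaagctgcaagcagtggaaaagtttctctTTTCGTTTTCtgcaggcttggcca
Sp110, chr9:93670688-93670737, minus strand: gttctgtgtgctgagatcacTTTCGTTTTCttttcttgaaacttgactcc

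The core stood in pairs that overlap by 4 bases in Oas1a and Oas1i, neighbours of one gene family on chromosome 12, and at 2 separate places in Ifi27 and Ifi44. A match is a description of these letters and not a bound site. Presence of the core did not divide the list by its values. It was found in 15 of the 23 promoters of members with an unadjusted p under 0.05 and in 7 of the 8 of the other members, Isg20, Gbp2 and Oas1b among them.

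Over all genes, 13 of 10103 were higher in siScramble than in wt at an adjusted p under 0.05, which is 0.129%, and none was lower (0%). A gene is represented by its brightest tested probe. At the level of probes, 19 of 18724 were higher, 0.101%, and 1 was lower, 0.00534%. The lower probe was a second, dimmer probe of Sel1l, which works in ER protein quality control. Of the 19 higher probes 6 had no gene name. Without adjustment, 867 genes (8.58%) had a p under 0.05 and were higher, and 785 (7.77%) had one and were lower. One sign in all 4 pairs was seen for 1238 genes (12.3%) upwards and 1262 (12.5%) downwards. The median difference over all genes tested was -0.00 on the log2 scale.

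The 2 largest of the called differences were those of interferon-stimulated genes. Ifi27, which codes for a mitochondrial interferon-induced protein, was 1.28, 0.86, 1.08 and 1.72 higher on the log2 scale in pairs 1 to 4 and 1.14 in the pooled pair. Its mean was 1.24 ± 0.12 (SE, n = 4), or 2.36-fold (95% interval 1.96 to 2.84), with an adjusted p = 0.00579 (limma). Its Cy3 level was 13.62, 14.23, 14.02 and 13.76 in wt and 14.95, 15.00, 15.05 and 15.48 in siScramble, so every siScramble culture lay above every wt culture.

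Rtp4, a chaperone of receptors at the cell surface that is also induced by interferon, was 1.41, 0.61, 1.00 and 2.04 higher in pairs 1 to 4 and 1.07 in the pooled pair. Its mean was 1.26 ± 0.18 (SE, n = 4), or 2.40-fold (95% interval 1.81 to 3.18, adjusted p = 0.0455, limma). As for Ifi27, pair 4 gave the highest value and pair 2 the lowest. The probe was spotted 10 times on each array, and the Cy3 levels of the conditions did not overlap, with the highest wt culture at 7.18 and the lowest siScramble culture at 7.84.

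Ccl5, a chemokine that attracts T cells and monocytes, was 1.09, 0.97, 0.74 and 0.80 higher in pairs 1 to 4 and 0.56 in the pooled pair. Its mean of 0.90 ± 0.08 (SE, n = 4) corresponds to 1.86-fold (95% interval 1.66 to 2.10, adjusted p = 0.00579, limma). Here pair 4 was not the highest. The Cy3 level was 6.71 to 6.99 in wt and 7.33 to 7.94 in siScramble. The siFoxE1 over siScramble ratios of Ccl5 had no common sign, at -0.30, -0.13, 0.23 and 0.66, while those over wt were 0.79, 0.84, 0.97 and 1.46.

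The remaining 10 called genes were each higher by less than 0.7 on the log2 scale. Lgals3, coding for galectin-3, a sugar-binding protein, was 0.52, 0.57, 0.31 and 0.56 higher in the 4 pairs (mean 0.49 ± 0.07, SE, n = 4, adjusted p = 0.0455, limma). Padi3, a peptidylarginine deiminase that turns arginine in proteins into citrulline, was 0.57, 0.42, 0.51 and 0.45 higher (mean 0.49, adjusted p = 0.0284, limma). Mlana, a melanosome protein, was 0.99, 0.48, 0.55 and 0.70 higher (mean 0.68, adjusted p = 0.0284, limma). These differences were 1.40-fold, 1.40-fold and 1.60-fold. Zc3h13, part of the complex that writes m6A on RNA, was 0.78, 0.39, 0.66 and 0.43 higher by its brightest probe (mean 0.56, adjusted p = 0.0441, limma), while another of its probes had a mean of -0.11, so the probes disagreed.

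The others included Htr6, a serotonin receptor, Aldoc, a glycolytic aldolase, Hpn, a membrane serine protease, P2ry12, an ADP receptor, and Apbb1, an adaptor that binds the amyloid precursor protein. Their means were 0.68, 0.64, 0.57, 0.47 and 0.46, with adjusted p values from 0.00579 to 0.0441 (limma). All 13 called genes had the same sign in the pooled pair, at 0.25 to 1.14. The calls depended on the pairs used. No gene passed without pair 1, 2 did without pair 2, 1 without pair 3 and 6 without pair 4. Of these, 1, 1 and 5 were among the 13. None passed when the pairing was ignored, while all 13 kept their sign in each of these fits.

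**Figure D1:**
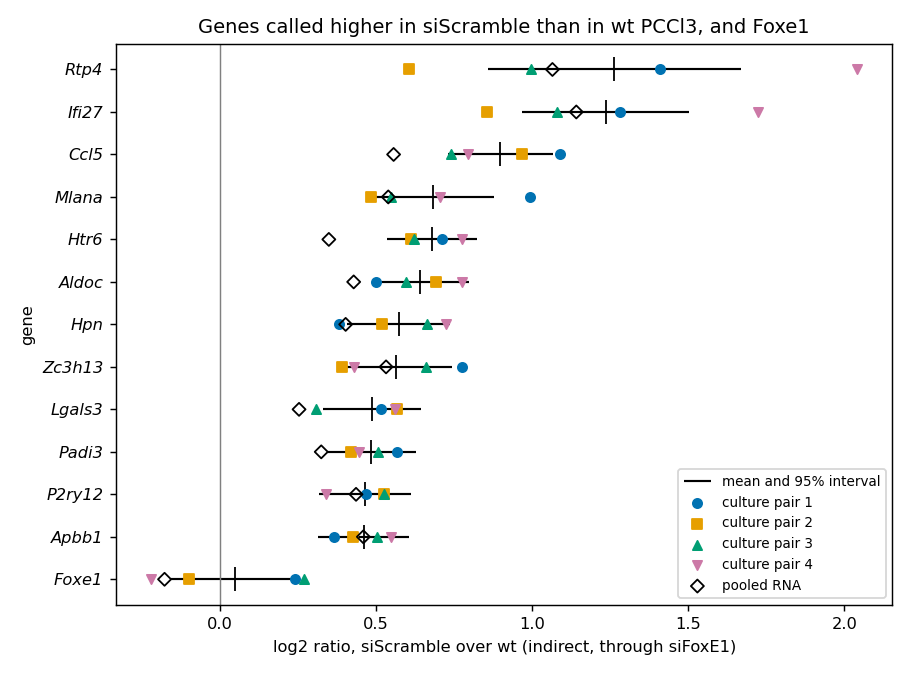
Log2 ratio of siScramble over wt (x axis) for 12 of the 13 called genes and Foxe1 (rows). Filled symbols are the 4 culture pairs, open diamonds the pooled pair, and black lines the mean with its 95% interval. Rtp4 and Ifi27 spread widest, with pair 4 at 2.04 and 1.72, while Foxe1 lies on both sides of 0.

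The same siFoxE1 extract lies on both arrays of a number, so its Cy5 level should be equal on both apart from measurement. In the deposited ratios both dyes enter, and the single dyes were separated after loess and quantile scaling of the averages. Over all tested probes, the SD of the Cy5 difference of the same extract was 0.15 to 0.23 in the 4 pairs, against 0.18 to 0.30 for the Cy3 difference of siScramble and wt and 0.14 to 0.25 for the paired difference itself. The Cy3 and Cy5 differences correlated at -0.64 to -0.58 in the 4 pairs. Parts of opposite sign in the dyes cancel in the paired difference, so the size of a Cy5 difference is not by itself the size of its error. Any part that does not cancel stays in the paired difference.

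The called genes fell into 2 kinds by this measure. For Zc3h13, Lgals3, Ifi27, Rtp4, Ccl5, Padi3 and Mlana the same extract differed by under 0.5 on the log2 scale between the arrays of every pair. For Ifi27 the Cy5 differences were 0.03, 0.02, 0.06 and 0.07, beside Cy3 differences of 1.33, 0.77, 1.03 and 1.72. For the other 6 genes it reached 0.5 or more in at least 1 pair, which 4.15% of all genes tested did.

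Aldoc was the widest of these. Its Cy3 differences were 2.86, 0.77, 1.58 and 3.05, and its same-extract Cy5 differences were -2.33, -0.07, -0.94 and -2.26, so both dyes were brighter on the siScramble array. Its ratio came from 1 spot, and its other tested probe had a mean difference of -0.13. Of the 6 called probes with no gene name 5 had the same property, with up to 3.02 for the widest. Over all tested probes 7.10% reached 0.5. Whether the spots have a part in these calls was not tested. With only the probes that stayed under 0.5, 4 probes and 2 genes passed, Ifi27 and Ccl5 as genes, an alternative chosen after seeing the data.

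**Figure D2:**
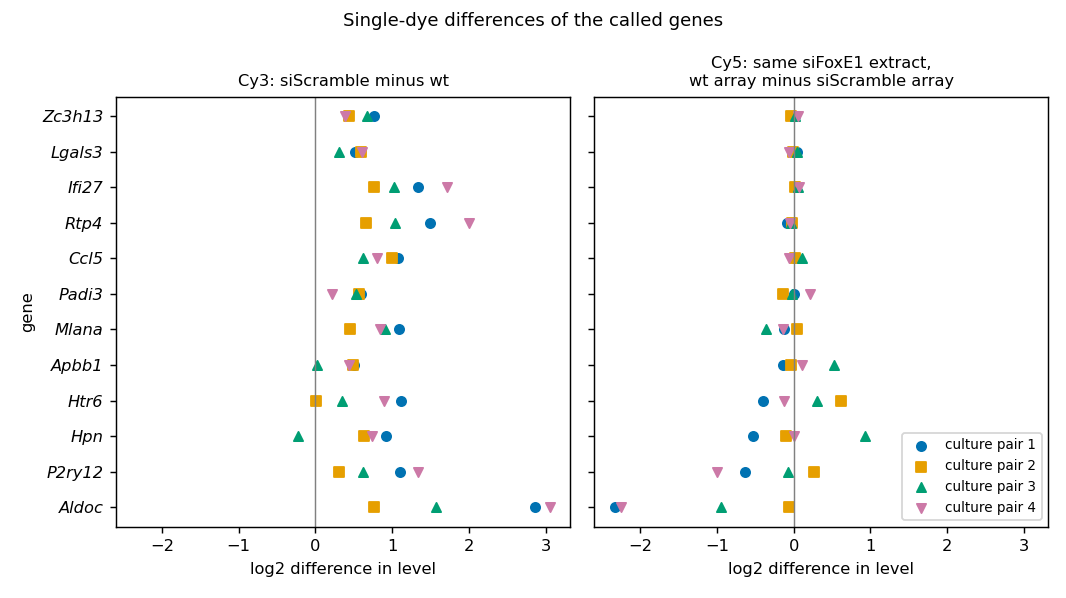
Log2 difference in Cy3 level, siScramble minus wt (left), and in Cy5 level of the same siFoxE1 extract, wt array minus siScramble array (right), for 12 of the 13 called genes in the 4 culture pairs. Points at the right lie near 0 for Zc3h13, Lgals3 and Ifi27 and reach -2.33 for Aldoc.

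Interferon-stimulated genes lay higher in siScramble as a list. Of 58 genes of the list 50 had a probe on the array and 39 were tested. Of these 39, 36 had a mean above 0, 28 (71.8%) had an unadjusted p under 0.05 upwards against 8.58% of all genes, and none had one downwards. Only Ifi27 and Rtp4 passed at an adjusted p under 0.05. The same sign in all 4 pairs was seen upwards in 27 (69.2%) against 12.3% of all genes, and downwards in none. The list was chosen with earlier results of these data known, so its counts describe these members and are not a test of the list.

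The median over the 39 genes was 0.43, beside -0.00 for all genes tested. By pair it was 0.32, 0.15, 0.25 and 0.79, and in the pooled pair 0.40. Pair 4 gave the highest value for 32 of the 39 genes and pair 2 the lowest for 28, whereas over all genes pair 4 was the highest for 23.3% and pair 2 the lowest for 23.6%. The median same-extract Cy5 difference of the list lay between -0.02 and 0.03 in the 4 pairs, and 1 of the 39 genes reached 0.5 in any pair.

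The largest mean belonged to a gene that did not pass the adjustment and whose 4 pairs were far apart. Lgals9, coding for galectin-9, was 1.65, 0.60, 0.87 and 2.14 higher in pairs 1 to 4, with a mean of 1.31 ± 0.21 (SE, n = 4, adjusted p = 0.0636, limma). Oas1k, a 2′-5′-oligoadenylate synthetase that senses double-stranded RNA, was 1.62, 0.53, 0.85 and 2.08 higher (mean 1.27 ± 0.21, adjusted p = 0.0666, limma). Both were high in pairs 4 and 1 and lower in pairs 3 and 2. Of further members, named after their values were seen, Oas1a and Isg15 had the same order of pairs. Oas1a had 1.59, 0.45, 0.73 and 2.05, and Isg15, the ubiquitin-like modifier, had 0.91, 0.27, 0.75 and 1.73. Rsad2, which codes for the antiviral enzyme viperin, ranged from 0.04 in pair 2 to 2.20 in pair 4, and Mx1, a dynamin-like GTPase that blocks viruses, was at 0.21 in pairs 2 and 3 and at 1.92 in pair 4. Genes of the Oas1 family are near copies of each other, and how far their probes share targets was not tested.

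Not every member was higher. Ifi27l2b, a paralogue of Ifi27, had -0.15, 0.16, -0.90 and -0.17 (mean -0.26), Shisa5 a mean of -0.08 and Isg20 one of -0.02. The siFoxE1 cells stood on the same side of wt. The list median of siFoxE1 over wt was 0.51, 0.24, 0.35 and 1.28 in replicates 1 to 4, and that of siFoxE1 over siScramble 0.12, 0.07, 0.13 and 0.40. Replicate 4 was highest in both. These ratios share the siFoxE1 extracts with the difference and are given beside it for that reason.

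**Figure D3:**
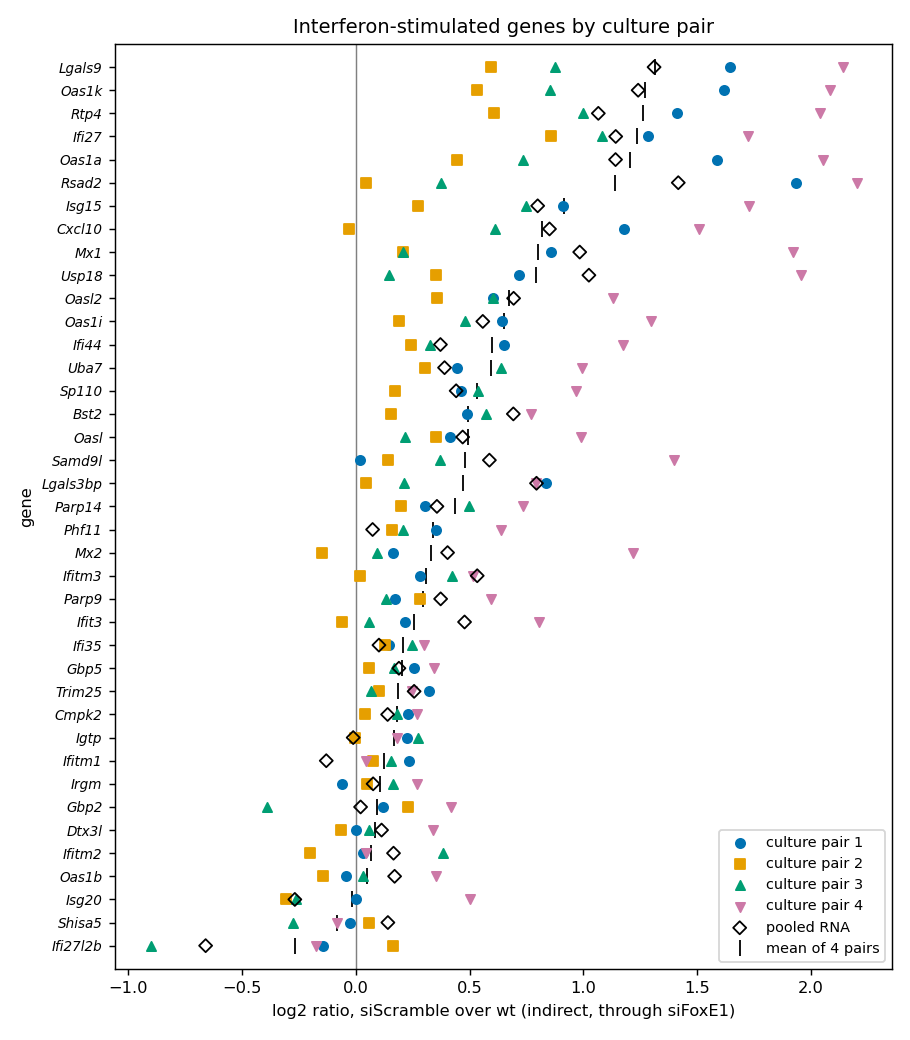
Log2 ratio of siScramble over wt (x axis) for the 39 tested interferon-stimulated genes (rows, ordered by mean). Filled symbols are the 4 culture pairs, open diamonds the pooled pair and black ticks the mean. Pair 4 lies furthest right for 32 genes and pair 2 furthest left for 28.

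The components that sense RNA and carry the interferon signal lay near 0 as a list. Of 24 tested, 4 (16.7%, against 8.58% of all genes) had an unadjusted p under 0.05 upwards and none downwards, and the median was 0.02. Among the 4 were 3 interferon regulatory factors, transcription factors downstream of the sensors or of the interferon receptor. Irf9 was 0.54, 0.37, 0.12 and 1.21 higher in pairs 1 to 4 (mean 0.56, adjusted p = 0.177, limma). Irf7 had 0.22, 0.28, 0.22 and 1.43 (mean 0.54), and Irf1 0.31, 0.13, 0.26 and 0.05 (mean 0.19). Irf7 and Irf9 were thus highest in pair 4, as the interferon-stimulated genes were, and Irf1 was lowest there. A second tested probe of Irf1 had a mean of -0.06, so its probes disagreed. None of the 4 passed at an adjusted p under 0.05.

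Among the sensors and adaptors, named after their values were seen, Ifih1 had a mean of 0.08, Dhx58 of 0.16, Eif2ak2 of 0.15, Tlr3 of -0.08 and Mavs of 0.16. Of 12 tested genes of the RNA interference machinery, which cuts and loads small RNAs, none had an unadjusted p under 0.05 upwards. Downwards there was 1 (8.33%, against 7.77% of all genes). It was Snd1, with a mean of -0.22 and 0.10 in the pooled pair. Dicer1, the enzyme that makes small RNAs, had -0.11, 0.09, -0.28 and -0.08 in the 4 pairs.

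Antigen presentation by class I molecules lies downstream of interferon in many cells. Of 19 tested genes of this list, 5 (26.3%, against 8.58% of all genes) had an unadjusted p under 0.05 upwards and none downwards, with a median of 0.10. Without pair 1 the count was 3, when 496 of all genes were upwards, against 867 with all pairs. Without pair 4 the median was 0.02. The 4 with the smallest p were Psme2 (mean 0.31) and Psme1 (0.25), activators of the proteasome, Tapbp (0.30), which loads peptides, and Psmb9 (0.20), a subunit of the immunoproteasome. None passed the adjustment. By pair the list median was 0.10, 0.03, 0.08 and 0.26, again highest in pair 4. RT1 genes of the class I locus are near copies of each other, so single RT1 values are uncertain. Of 7 tested class II genes none had an unadjusted p under 0.05. Of 14 NF-kB targets and cytokines, 2 (14.3%) had an unadjusted p under 0.05 upwards and 3 (21.4%) downwards, against 8.58% and 7.77% of all genes. Upwards were Ccl5, which was called, and Csf1, a macrophage growth factor (mean 0.20). Among the 3 downwards were Lcn2 (mean -0.42, but 0.10 in pair 2), an iron-binding protein, and Rela (-0.20, but 0.05 in the pooled pair), the NF-kB subunit. The siFoxE1 signal of Lcn2 was well above background on only 5 of the 8 arrays.

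Cholesterol synthesis genes lay lower in siScramble, by small amounts. Of 28 tested, 14 (50%) had an unadjusted p under 0.05 downwards against 7.77% of all genes, none had one upwards, and none passed at an adjusted p under 0.05. The same sign in all 4 pairs was seen downwards in 13 (46.4%, against 12.5% of all genes) and upwards in 1 (3.57%, against 12.3%). The median was -0.17 over the list, at -0.19, -0.05, -0.22 and -0.20 in pairs 1 to 4 and -0.23 in the pooled pair. Every pair and the pooled pair were below 0, pair 2 least.

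Insig1, which holds the SREBP transcription factors in the ER, was -0.47, -0.25, -0.76 and -0.28 in the 4 pairs, a mean of -0.44 ± 0.09 (SE, n = 4, adjusted p = 0.117, limma), but 0.07 in the pooled pair. Cyp51, the lanosterol demethylase, was -0.16, -0.34, -0.40 and -0.49 (mean -0.35, adjusted p = 0.120, limma). Hsd17b7, a sterol reductase, was -0.39, -0.14, -0.42 and -0.44 (mean -0.34, adjusted p = 0.120, limma). For Cyp51 and Hsd17b7 the pooled pair was below 0 too, at -0.36 and -0.39.

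The core of the sterol regulatory element, searched as TCACNCCAC on both strands, was in none of the 21 promoters of the list found in the table and in 1.13% of all promoters. No match says only that these letters are not in this window. Of 31 tested genes of fatty acid and membrane lipid metabolism 7 (22.6%, against 7.77% of all genes) had an unadjusted p under 0.05 downwards and none upwards, among them the desaturases Fads1 (mean -0.32) and Fads2 (-0.32, but 0.07 in the pooled pair), Gpam (-0.25), the first enzyme of glycerolipid synthesis, and Acly (-0.21), which makes acetyl-CoA. The median of that list was -0.02. Of 9 lipid droplet genes, Mgll, a monoacylglycerol lipase, was 0.54, 0.18, 0.49 and 0.40 (mean 0.40, adjusted p = 0.102, limma), and Bscl2 had a mean of 0.21.

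The integrated stress response raises genes of amino acid synthesis and transport. Of 35 tested, 15 (42.9%) had an unadjusted p under 0.05 downwards against 7.77% of all genes, none had one upwards, and none passed the adjustment. The same sign in all 4 pairs was seen downwards in 15 against 12.5% of all genes, and upwards in none. Nupr1, a small stress-induced chromatin protein, was -0.41, -0.32, -0.65 and -0.43 in pairs 1 to 4 and -0.46 in the pooled pair, a mean of -0.45 ± 0.07 (SE, n = 4, adjusted p = 0.0651, limma). All 5 differences had one sign. Psph, an enzyme of serine synthesis, was -0.48, -0.16, -0.50 and -0.39 (mean -0.38), and Slc7a5, an amino acid transporter, -0.55, -0.31, -0.55 and -0.14 (mean -0.39), with 0.49 in the pooled pair. Cth, which makes cysteine, had a mean of -0.32, but its siFoxE1 signal was well above background on only 3 of the 8 arrays. The list median was -0.02, -0.27, -0.28 and -0.12 in the 4 pairs and -0.00 in the pooled pair.

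Pair 3 stood apart in 2 lists. For 31 ER chaperones and unfolded protein response genes the medians were -0.23, 0.01, -0.56 and -0.06 in pairs 1 to 4, and pair 3 gave the lowest value for 27 of the 31. For 36 cell cycle genes they were 0.12, 0.04, 0.52 and 0.04, and pair 3 gave the highest value for 31. Over all genes, pair 3 was the lowest for 27.7% and the highest for 29.2%.

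In the ER list 13 genes (41.9%, against 7.77% of all genes) had an unadjusted p under 0.05 downwards and none upwards. The downward count was 5 (16.1%) without pair 3, when 1 was upwards, and 6 without pair 1, and the median was -0.09 and -0.19 in these fits. Over all genes 4.40% were downwards and 5.32% upwards without pair 3. Without pair 1, 896 of all genes had such a p in either direction, against 1652 with all pairs. Sel1l was -0.57, -0.16, -1.07 and -0.34 by its brightest probe (mean -0.53, adjusted p = 0.155, limma), with -0.52 in the pooled pair. Hyou1, an ER chaperone, was -0.27, -0.10, -1.21 and -0.43 (mean -0.50, adjusted p = 0.207, limma). Sec61a1, of the channel into the ER, had a mean of -0.44 and 0.05 in the pooled pair, Pdia4, a disulfide isomerase, -0.35 and Ssr1 -0.35. The median of siFoxE1 over wt for this list was -0.28, -0.04, -1.89 and -0.97 in replicates 1 to 4, and that of siFoxE1 over siScramble -0.09, -0.07, -1.43 and -1.02. Each difference is thus taken between larger ratios in replicates 3 and 4.

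In the cell cycle list 14 of 36 (38.9%, against 8.58% of all genes) had an unadjusted p under 0.05 upwards and none downwards. The upward count was 4 (11.1%) without pair 3, when 1 was downwards, 5 without pair 1 and 2 (5.56%) with Feature Extraction processed signals. The share over all genes fell as well. It was 5.32% upwards and 4.40% downwards without pair 3, and 5.51% upwards with processed signals. Without pair 1, 496 of all genes were upwards, against 867 with all pairs. The median was 0.06 without pair 3 and 0.22 without pair 1. Plk1, a mitotic kinase, was 0.58, 0.11, 0.92 and 0.14 (mean 0.44, adjusted p = 0.202, limma). Ccnb1, cyclin B1, was 0.35, 0.04, 0.64 and 0.26 (mean 0.32), and Ccna2 and Bub1 had means of 0.33 and 0.25, with Bub1 at -0.14 in the pooled pair. The median of siFoxE1 over wt for this list was 0.66 in replicate 3, and that of siFoxE1 over siScramble was 0.12. The arrays of pair 3 lie on different slides, and the part of the slide in these values was not tested.

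**Figure D4:**
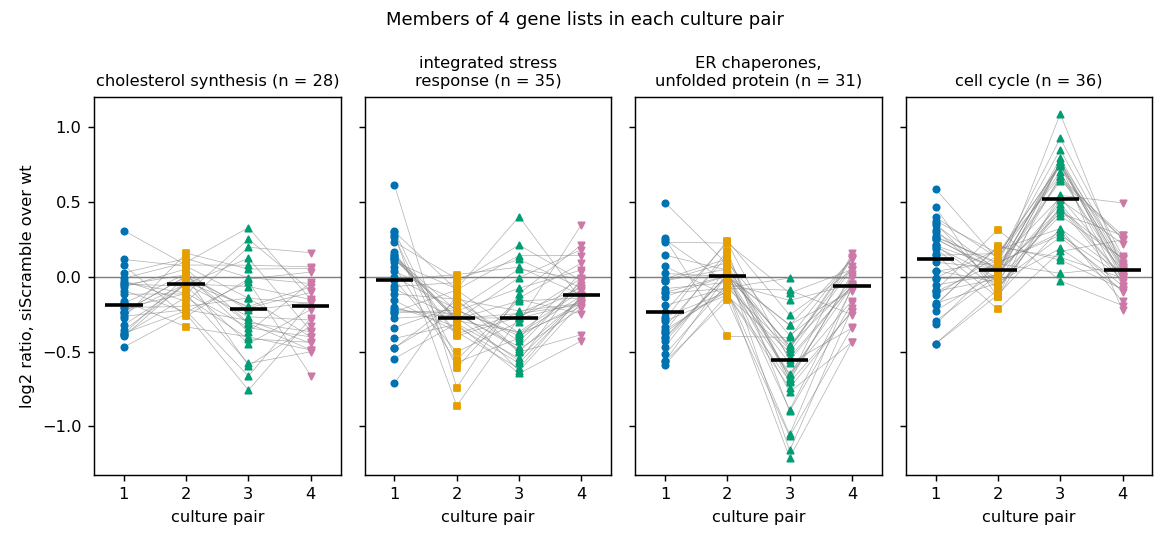
Log2 ratio of siScramble over wt (y axis) of every tested member of 4 gene lists in culture pairs 1 to 4. Grey lines join a gene and black bars are the pair's median. ER chaperones are at a median of -0.56 and cell cycle genes at 0.52 in pair 3.

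Thyroid genes lay near 0 for the most part. Of 25 tested, 5 (20%, against 8.58% of all genes) had an unadjusted p under 0.05 upwards. Downwards there was 1 (4%, against 7.77% of all genes), and the median was 0.06. The upward count was 2 without pair 1 and 2 without pair 3. Over all genes it was 496 and 537 in these fits, against 867 with all pairs. The one downwards was Slc5a5, the sodium iodide symporter, at -0.18, -0.35, -0.37 and -0.50 in pairs 1 to 4 and -0.37 in the pooled pair. Its mean was -0.35 ± 0.07 (SE, n = 4), or 1.27-fold lower, with an adjusted p = 0.117 (limma). Its Cy3 level was 12.94, 13.19, 13.37 and 13.47 in wt and 12.80, 12.92, 12.89 and 13.05 in siScramble, so the conditions overlapped although each pair had one sign. Upwards were Thrb, a thyroid hormone receptor (mean 0.32), Crym, which binds thyroid hormone (0.39), and Duox1, an oxidase of hormone synthesis (0.22). The mean of Thrb was -0.05 with Cy3 levels alone, and the same siFoxE1 extract differed by 1.304 between its arrays in pair 4. Crym was at -0.14 in the pooled pair. Tg, Pax8 and Nkx2-1 had means of -0.08, -0.02 and -0.08.

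Of 18 tested epithelial genes 6 (33.3%, against 8.58% of all genes) had an unadjusted p under 0.05 upwards and none downwards, with a median of 0.10. Without pair 1 the count was 3, when 496 of all genes were upwards, against 867 with all pairs. The 6 include Krt20, a keratin, at 0.29, 0.60, 0.50 and 0.28 (mean 0.42, adjusted p = 0.0921, limma), Itgb4 (0.38), an integrin of hemidesmosomes, Prss8 (0.25), a protease, and Cdh1 (0.27), E-cadherin. For early response genes the counts were 1 upwards (3.45%) and 4 downwards (13.8%) of 29, against 8.58% and 7.77% of all genes. Dusp6, a phosphatase of ERK, was -0.45, -0.04, -1.07 and -0.75 (mean -0.58, adjusted p = 0.155, limma), Dusp1 had a mean of -0.29 (0.04 in the pooled pair) and Etv5 of -0.33. Junb went the other way with 0.24. Of the genes with lower means outside these lists, Esyt1, a tether between ER and plasma membrane, had -0.65, -0.12, -1.03 and -0.35 (mean -0.54, adjusted p = 0.152, limma).

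Further lists gave these counts at an unadjusted p under 0.05, beside 8.58% of all genes upwards and 7.77% downwards. Over all genes 867 were upwards with all pairs and 557 with Feature Extraction processed signals. The upward count was 496 without pair 1, and 496 to 921 when any pair was left out. In either direction, 1652 genes had such a p with all pairs and 896 without pair 1. Of 27 oxidative stress genes under NRF2, 7 (25.9%) were upwards and none downwards, but 1 was upwards without pair 1 and 3 with Feature Extraction processed signals. The list held Gstp1, a glutathione transferase, at 0.36, 0.30, 0.39 and 0.13 (mean 0.30). Of 19 heat shock genes 4 (21.1%) were downwards and none upwards, and 2 were downwards without pair 1. Among the 4 were the co-chaperones Hsph1 (-0.22), Ahsa1 (-0.28) and Stip1 (-0.21), which had the opposite sign in the pooled pair, at 0.17, 0.10 and 0.12. The pooled median of this list was 0.04. Of 25 matrix genes 4 (16%) were upwards, and 1 to 3 when any pair was left out, with Timp2, an inhibitor of matrix proteases, at a mean of 0.37. Of 33 p53 and apoptosis genes 1 was upwards, Gadd45b (0.36), and 1 downwards, Mcl1 (-0.20). Hypoxia and glycolysis genes had 4 upwards and 4 downwards of 28, and lysosome genes 1 and 1 of 33.

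**Figure D5:**
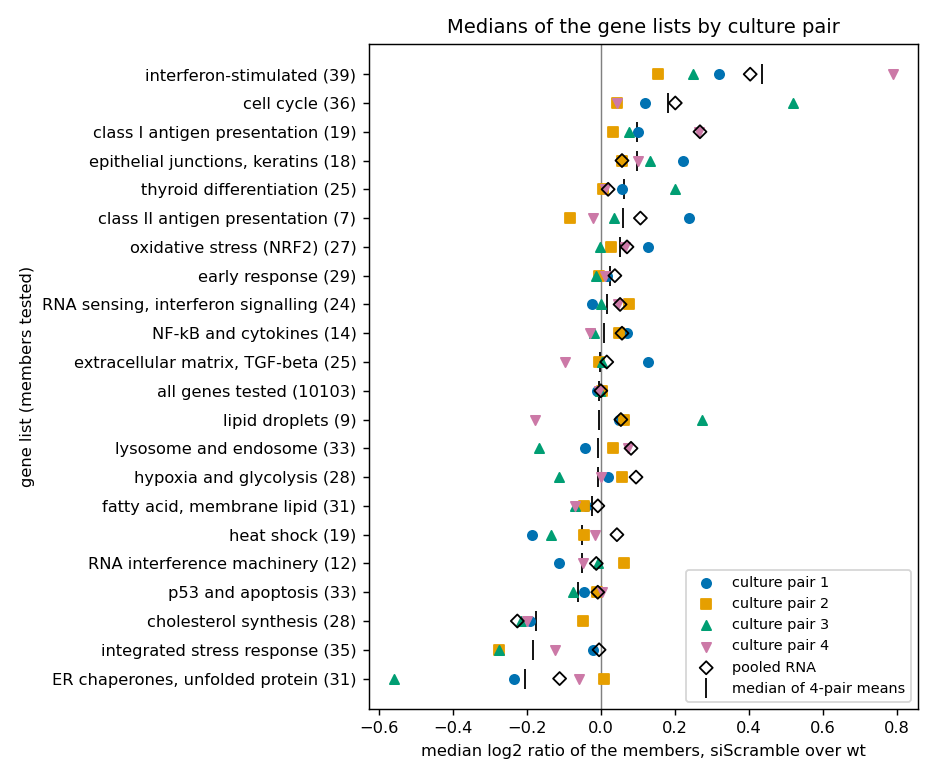
Median log2 ratio of siScramble over wt (x axis) of each gene list with at least 7 tested members (rows, member number in brackets) and of all genes tested. Filled symbols are the culture pairs, open diamonds the pooled pair and black ticks the median of the 4-pair means. The interferon-stimulated list is at 0.43 and the ER list at -0.20, with all genes at -0.00.

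Across all tested probes the mean of the 4 pairs and the pooled difference had r = 0.26 (Pearson, taken over probes, none of which is a replicate of another), and single pairs had r = 0.09 to 0.23 with it. The SD over probes was 0.13 for the mean and 0.18 for the pooled difference. All 20 called probes had the sign of the pooled pair. Exact sign flips of 4 differences cannot give a two-sided p below 0.125, so single genes rest on the variance that limma shares across probes.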

How the data were processed

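PCCl3 RNA was hybridised to 10 Agilent rat arrays, and per the labels siFoxE1 was in Cy5 on the 8 individual arrays and in Cy3 on the 2 pooled ones. Scans were read by the authors in Feature Extraction (version 10.7.3.1 in the scan headers). The deposited files give spot intensity per dye (median signals were read here) and the log10 ratio of red over green. That ratio was used to settle the direction. The authors normalized by loess and quantiles, with limma 3.2.3 in the submitters' notes, and deposited log2 ratios per spot. These were used here, without spots marked as outliers (1.25 to 1.60% per array) and averaged per probe. Tests covered probes clearly above background (Agilent's call) in Cy3 on at least 3 of 4 wt or 3 of 4 siScramble arrays (18724 of 30367). Paired differences were fitted with an intercept in limma 3.58.1 (R 4.3.3, tested on simulated data), with Benjamini-Hochberg adjustment over all tested probes. Of 30367 probes 17998 were named by RefSeq accession and 185 through the study's tables, and 12184 had no name.

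The numbers pair the arrays because one siFoxE1 extract serves both arrays of a number. Deviations from the mean correlated at 0.61, 0.75, 0.75 and 0.40 for equal numbers and at -0.64 to 0.50 for unequal ones. Named genes were Foxe1, up to 12 called rises and falls with one sign in all pairs and the pool, filled by p from differences of at least 0.5, and up to 4 genes per list, and some genes that this rule names are not reported here. Members, rule and lists were chosen with earlier results of these data known. Fitted alternatives were other signals, filters, pairings, centring, pools, slides and left-out pairs. Authors' fold changes and p-values in the study's tables were not used. Promoters and plots were handled in Python 3.11.15 with pandas 2.3.3, numpy 2.4.6 and matplotlib 3.10.9.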

Additional observations from a re-analysis of the deposited data

Results flagged for a closer look

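In 7 of the 103 named genes 1 of the 4 culture pairs stood far from the other 3, with a gap over the whole range above Dixon's 95% critical value. Chance alone gives this in about 1 of 20 groups of 4, so the number is close to that. Irf7 was at 1.43 in pair 4, with the next pair at 0.28, and pair 4 was also the highest for most interferon-stimulated genes. Psme1 was at 0.0334 in pair 2, with the next at 0.31. Stip1 was at -0.35 in pair 1, with the next at -0.18. Hk2, a hexokinase, was at -0.42 in pair 3, with the next at -0.18. Dgcr8, of the microRNA machinery, was at 0.25 in pair 2, with the next at -0.26. Adgre1, a macrophage marker, was at -0.33 in pair 3, with the next at -0.01, and Col1a2, a fibroblast collagen, at -0.16 in pair 4, with the next at 0.00. None of these 7 genes passed at an adjusted p under 0.05.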

How the results depend on the processing

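The 13 called genes kept their sign under every alternative in which they were tested (7 of the 13 with the same-extract limit), but the number of calls did not hold. Leaving out 1 pair gave 0 to 16 called probes and 0 to 6 called genes. With pairs on one slide only, which is the fit without pair 3, 1 probe and 1 gene passed. Without the pairing by replicate number (no replicate block), 0 probes and 0 genes passed and 344 genes had an unadjusted p under 0.05. Feature Extraction processed signals gave 0 probes and 0 genes (1261 genes unadjusted), Cy3 levels alone 0 and 0 (1456), and all 10 arrays with a dye term 0 and 0 (366). A robust intensity trend gave 56 probes and 38 genes, 12 of them among the 13. With the pooled pair added, which holds RNA of the same cultures, 119 probes and 86 genes passed. At the methods' threshold of 0.005, 0 passed. The same-extract limit, chosen after seeing the data, gave 4 probes and 2 genes. The median of the interferon-stimulated list stayed between 0.24 and 0.51, that of the cholesterol list between -0.23 and -0.14. Without the pairing, 13 interferon-stimulated genes (33.3%) and 1 cell cycle gene (2.78%) had an unadjusted p under 0.05 upwards. Downwards were 2 cholesterol genes (7.14%), 1 integrated stress response gene (2.86%) and 0 ER genes. Over all genes, 1.55% were upwards and 1.85% downwards in that fit. The cause of these changes was not tested.

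With Cy3 levels alone the mean of Thrb changed from 0.316 to -0.0481. The other means that changed sign were smaller. With Cy3 levels alone they were -0.0444 for Foxe1, -0.0112 for Ret and 0.0566 for Cd68. With the pooled pair added, and with all 10 arrays, Cd68 was at 0.198. With one slide only they were -0.0257 for Foxe1, 0.0198 for Adgre1, -0.00251 for RT1-DMb, 0.00399 for Cd68 and 0.000804 for Cd14. Leaving out 1 pair gave -0.0257 to 0.137 for Foxe1, -0.0358 to 0.131 for Cdh5, -0.105 to 0.0198 for Adgre1, -0.00251 to 0.106 for RT1-DMb, -0.0802 to 0.00399 for Cd68, -0.054 to 0.000804 for Cd14 and -0.0451 to 0.0189 for Col1a2. Dim probes limit precision, since the median Cy3 signal was 72 to 88 over a background of 21 to 22.5.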
